A study of Homo sapiens with 8 samples.

Results

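This account concerns the METTL3 peaks that were listed in PC3 cells and had no counterpart at the same place in LNCaP cells. RNA bound by METTL3 was immunoprecipitated and sequenced (RIP-seq) in these human prostate cancer cell lines. PC3 is an androgen-independent line from a bone metastasis, grown per the labels in RPMI-1640 with 10% serum, and LNCaP is an androgen-sensitive line from a lymph node metastasis, grown with 20% serum. No treatment or genetic change is named for either line. From each line came 2 replicates of the METTL3 precipitate and 2 of its input, 8 samples in all, but the files analysed are 1 peak list per line, so no value below has an error between replicates, and sequencing depth is unknown. Line and serum share cannot be told apart in this design.

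The members were chosen by overlap. A PC3 peak was taken as PC3-only where it shared no base with any LNCaP peak on the same chromosome and strand, with no filter on fold or p. This left 574 of the 1033 PC3 peaks (55.6%, the share that the rule itself sets; 95% Wilson interval 52.5 to 58.6%, counting error only), of 3649 peaks in both lists. The other 459 PC3 peaks overlapped a LNCaP peak. Of the 574, 556 lay whole within exactly 1 protein-coding gene of RefSeq, on 241 genes, and 18 lay within none or in several. A LNCaP peak was present elsewhere on the gene for 263 of the peaks, on 111 genes. No LNCaP peak lay on the gene for the other 293, on 130 genes. Since the overlap and the peak calls chose the members, their folds, p-values, lengths and positions are given as descriptions, without a test.

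METTL3 is the catalytic subunit of the nuclear complex that writes N6-methyladenosine (m6A) onto RNA, with METTL14 as its partner and WTAP, VIRMA and ZC3H13 as further subunits. The mark is made mostly within a short sequence context around GGAC, is frequent in long exons and near stop codons, and is read by YTH-domain and IGF2BP proteins that act on splicing, translation and decay. A RIP peak is a stretch where RNA recovered with METTL3 exceeds input. It is not a map of methylated bases.

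The coordinates of 7 PC3-only peaks of 5000 bp or less covered a start that RefSeq's promoter table lists for a protein-coding gene on the peak's strand. At 6 such starts, the sequence is shown from that table (GRCh38.p14), as examples of PC3-only peaks whose place can be set against letters. The upstream edge of the peak lies within the letters for DDX23, EFTUD2, PSMD2 and ACTN1 and before them for DNMT1 and ASXL1. Each line gives 70 bases before the start in lower case and the first 30 transcribed bases in capitals, 5′ to 3′.
DDX23, chr12:48852134-48852233, minus strand: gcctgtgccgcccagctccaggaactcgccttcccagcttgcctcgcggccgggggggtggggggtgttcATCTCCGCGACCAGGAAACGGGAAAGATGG
EFTUD2, chr17:44899416-44899515, minus strand: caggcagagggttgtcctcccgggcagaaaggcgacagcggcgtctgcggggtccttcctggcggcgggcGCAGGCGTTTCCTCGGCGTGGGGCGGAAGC
DNMT1, chr19:10194924-10195023, minus strand: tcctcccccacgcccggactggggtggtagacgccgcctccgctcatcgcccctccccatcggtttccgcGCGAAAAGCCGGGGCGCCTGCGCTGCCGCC
PSMD2, chr3:184299171-184299270, plus strand: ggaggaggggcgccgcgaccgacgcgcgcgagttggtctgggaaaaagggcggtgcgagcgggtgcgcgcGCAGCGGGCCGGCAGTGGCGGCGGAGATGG
ACTN1, chr14:68979273-68979372, minus strand: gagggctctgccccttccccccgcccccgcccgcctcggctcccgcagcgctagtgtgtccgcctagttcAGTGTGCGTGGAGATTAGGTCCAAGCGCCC
ASXL1, chr20:32358995-32359094, plus strand: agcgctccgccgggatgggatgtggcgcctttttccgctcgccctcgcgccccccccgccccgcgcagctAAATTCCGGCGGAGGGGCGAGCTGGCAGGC

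On DDX23, a splicing helicase, the peak (48847337 to 48852163, fold 3.91) began at the first transcribed base itself, the A that opens the capitals. On EFTUD2, a spliceosomal GTPase, the peak (44899306 to 44899506, fold 4.96) began 61 bases before the start shown and 138 before another listed start. On DNMT1, the maintenance DNA methyltransferase, the peak (10194858 to 10195033, fold 7.15) began 80 bases before the start. The distances were 58 bases on PSMD2, a proteasome subunit (fold 2.98), and 48 bases on ACTN1, an actin crosslinker (fold 4.30). These 4 peaks reached beyond the gene's own span and so count among the 18 with no single gene. The ASXL1 start shown is an inner one, since the gene's span begins further upstream, and the peak (fold 4.37) began 347 bases before it. The remaining peak of the 7 covered an inner start of PSMD2 (184300329 to 184300615, fold 3.04). A further short peak, 6606663 to 6607476 on chromosome 12 (fold 10.1), is not among the 7, because it covered the 5′ end of the gene span of CHD4, a chromatin remodeler, and not the inner start that the promoter table lists.

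Gene starts were a small part of the PC3-only peaks. Windows of 250 bases before to 50 bases after a start were touched by 18 of the 574 (3.14%, Wilson interval 1.99 to 4.90%), by 15 of the 459 overlapping PC3 peaks (3.27%, 1.99 to 5.32%) and by 130 of the 2616 LNCaP peaks (4.97%, 4.20 to 5.87%). The intervals of the 2 PC3 classes cover nearly the same range. The letters GGACT, or AGTCC on the other strand, stood in the start window of 91 of the 194 member genes that the table holds (46.9%), and in 45.8% of the windows of all 15813 protein-coding genes in it. By class the shares were 40.7% (37 of 91 genes with a LNCaP peak elsewhere) and 52.4% (54 of 103 genes without one). These windows lie mostly outside the peaks, so the counts describe the genes' starts only.

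The authors' fold of the PC3-only peaks ran from 2.20 to 139.4, with a median of 5.87 (95% interval between order statistics 5.66 to 6.08) and with the middle portion between 4.17 and 8.63. The overlapping PC3 peaks had a median of 5.49 (5.26 to 5.90) and reached no further than 19.0. The 20 largest folds of the whole PC3 list were all on PC3-only peaks, as were 82 of the 100 largest. By p the PC3-only share varied along the list. It was 11 of the 20 smallest p-values and 31 of the 100 smallest, and p was at most 1e-10 in 154 of the 574 (26.8%) against 228 of the 459 overlapping ones (49.7%). With the PC3 list cut by p into 4 equal groups, 36.3% of peaks in the group with the smallest p-values were PC3-only, and 68.2% in the group with the largest. Among the PC3-only peaks 108 (18.8%) had a fold of at least 10, against 37 (8.06%) of the others. Peaks on 1 gene are counted separately here, and all 8 on MUC5AC and all 8 on SIPA1L3 had folds above 10. With 1 peak per gene the median fold of the PC3-only peaks was 5.51. Without the 10 genes with most PC3-only peaks it was 5.45. Both values are near the 5.49 of the overlapping peaks, for which these cuts were not made.

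**Figure D1:**
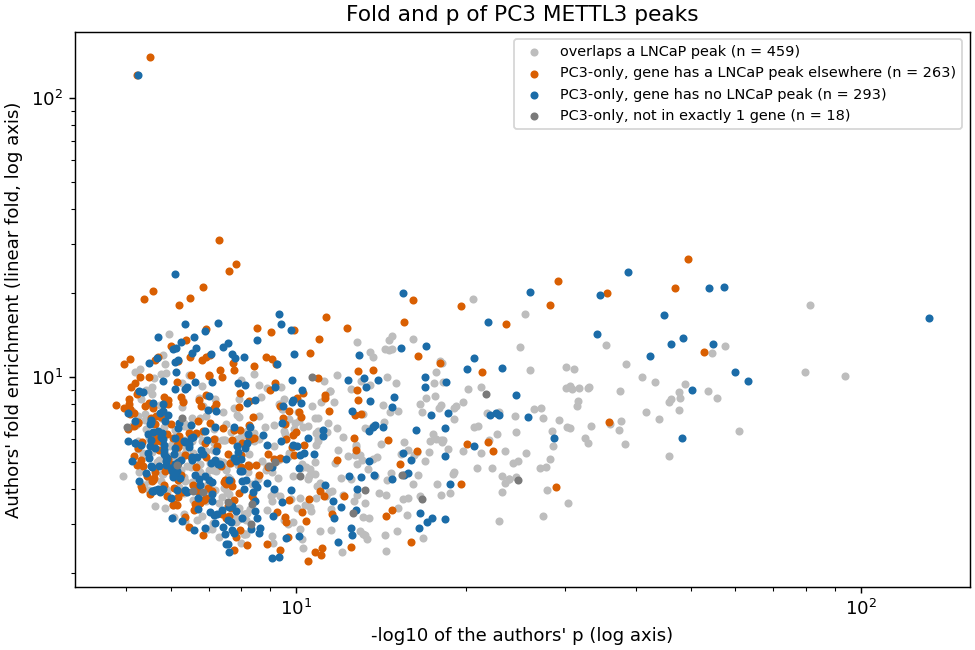
Each point is 1 PC3 peak, with the negative log10 of the authors' p on the horizontal axis and the authors' linear fold on the vertical axis, both on log axes. Colours mark PC3-only peaks by whether their gene carries a LNCaP peak, light grey marks the 459 peaks that overlap a LNCaP peak, and dark grey the 18 PC3-only peaks in no single gene. All 20 of the largest folds are on PC3-only peaks.

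Most PC3-only peaks were short. Their median genomic span, introns included, was 506 bp (394 to 676), against 1634 bp (1277 to 2200) for the overlapping peaks. Among peaks with a p of at most 1e-10 the medians were 2681.5 bp (154 peaks) and 4099 bp (228 peaks). The shortest listed span, 51 bp, was found in 81 of them (14.1%) and in 27 of the overlapping peaks (5.88%), and 243 (42.3%) were under 300 bp. Spans over 10000 bp numbered 48, the longest being 72312 bp on ACTN1. A longer peak meets another more easily, so part of this difference in length follows from the rule. Of the 574 peaks, 109 stood within 25 bp of another PC3-only peak on their strand, and 29 belonged to a stretch of this kind that also held an overlapping peak.

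The distance to the nearest LNCaP peak depends on the class by construction, since a LNCaP peak on the gene is a close one. The peaks just inside the rule were 5 peaks with 24 bases between them and a LNCaP peak, on ANKRD11 (fold 8.12), ATN1 (6.82), MYH9 (4.47) and SPEN (8.29 and 6.85). Just outside it were 10 PC3 peaks that shared exactly 1 base with a LNCaP peak, among them peaks on APLP2 (fold 2.86), COL6A2 (2.82) and DNM2 (4.27). On genes with a LNCaP peak elsewhere the median distance to the nearest LNCaP peak on the strand was 5481 bases, and 74 of the 263 peaks (28.1%) had one within 1000. On genes without a LNCaP peak the median was 761567 bases and the shortest distance 8738. Of the 75 peaks within 1000 bases of a LNCaP peak, the remaining 1 lay in no single gene.

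**Figure D2:**
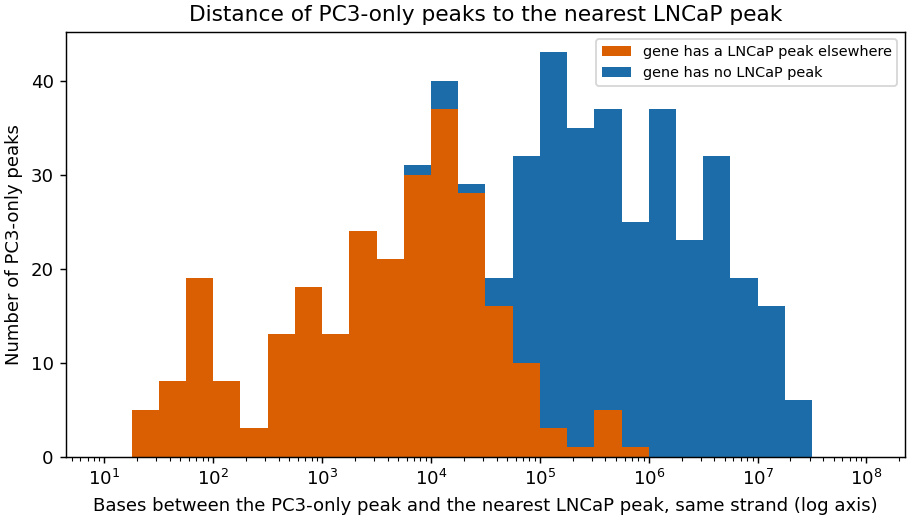
Numbers of PC3-only peaks are stacked by the number of bases to the nearest LNCaP peak on the same strand (log axis), in 2 colours for genes with and without a LNCaP peak. The first class spreads from 24 bases to over 100000, with a median of 5481, and the second begins at 8738. The 18 peaks in no single gene are not drawn.

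Among all 19974 protein-coding genes, 1.21% carried a PC3-only peak, 0.556% carried one beside a LNCaP peak elsewhere, and 0.651% carried one with no LNCaP peak. A LNCaP peak lay on 5.41% of all protein-coding genes and on 111 of the 241 member genes (46.1%, Wilson interval 39.9 to 52.4%), a share that the rule lowers by leaving out overlapping peaks. The shares over all protein-coding genes include genes that may not be expressed in either line, and expression is not in the lists. Member genes were long. Their median span was 94598 bp (79148 to 116034) without a LNCaP peak and 74003 bp (57591 to 92750) with one elsewhere, against 24170.5 bp over all protein-coding genes and 65922 bp (61593 to 77035) over all genes with a LNCaP peak. A single PC3-only peak was present on 65 of the 130 and 45 of the 111 genes. At the other end, 10 and 12 genes carried 5 or more, holding 91 and 79 peaks.

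**Figure D3:**
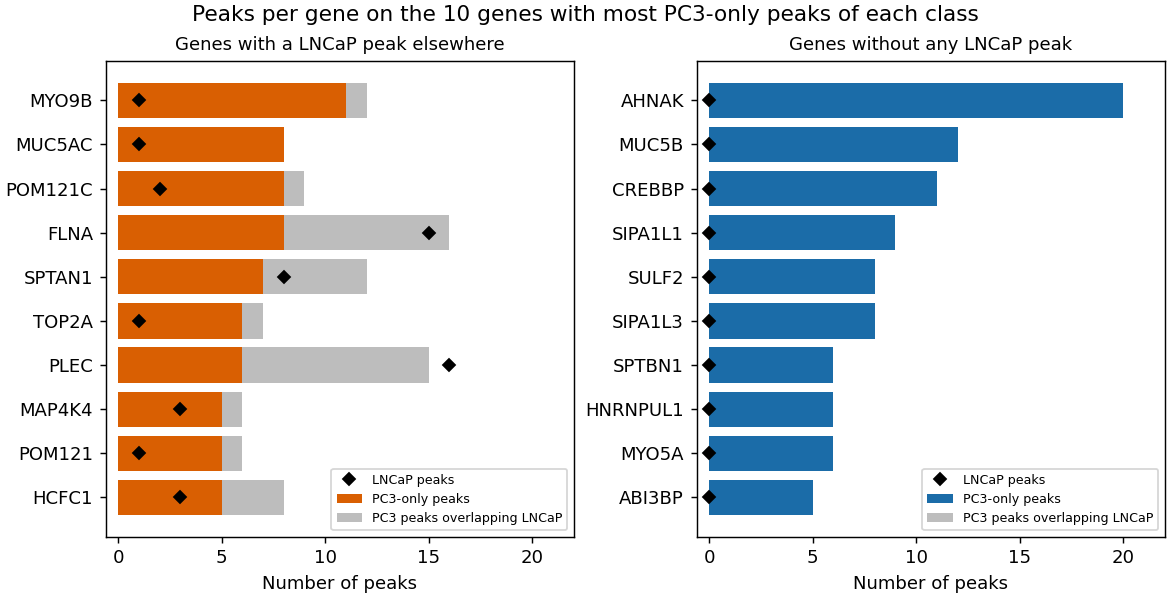
Bars give the number of PC3 peaks on the 10 genes with most PC3-only peaks in each class, coloured for PC3-only peaks and grey for peaks overlapping LNCaP, and diamonds give the number of LNCaP peaks. AHNAK leads with 20 PC3-only peaks and no LNCaP peak, and on FLNA and PLEC grey bars and diamonds are as large as the coloured part or larger.

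AHNAK, a giant scaffold protein whose coding sequence lies almost wholly in a very large exon, had 20 PC3-only peaks and no peak in LNCaP. All lay on the gene's minus strand between 62516829 and 62536548 on chromosome 11 and in the first part of the gene span, from 9.18 to 26.3% of the way along. They were small, 51 to 876 bp each and 4626 bp in all over 19720 bp. Folds were even, from 3.21 to 7.34 with a median of 5.54, and the smallest p, 4.40e-18, belonged to the longest of them (62532379 to 62533254). Its relative AHNAK2 on chromosome 14 had 3 PC3-only peaks, the largest of 1708 bp at 104953352 to 104955059 with a fold of 10.5 and a p of 1.40e-60, number 7 of the whole PC3 list by p.

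MUC5B and MUC5AC, gel-forming mucin genes of chromosome 11, had peaks of high fold. MUC5B had 12 PC3-only peaks and no LNCaP peak. On the plus strand 11 of them tiled 1241422 to 1251447, in the middle and last parts of the gene span. Their folds ran from 9.09 to 23.8, the highest at 1246922 to 1247597, and the peak at 1249472 to 1251447 combined a fold of 21.0 with a p of 4.30e-58, number 9 by p. The minus-strand peak beneath them, 1242335 to 1249667, had a fold of only 2.58. MUC5AC, its neighbour, had 8 PC3-only peaks between 1184948 and 1191473, all on the plus strand, with folds from 11.8 to 26.5 and a smallest p of 4.25e-50. Its 1 LNCaP peak lay at 1172511 to 1174583, upstream of all 8, with a fold of 3.92 and a p of 0.00950. MUC6, which encodes a gastric mucin, had 1 PC3-only peak with a fold of 7.89 and 1 LNCaP peak with a fold of 13.1. These genes are close relatives with repetitive coding sequence, and how reads that match several of them were counted is not given in the sources used here, so the division of reads between them is uncertain.

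**Figure D4:**
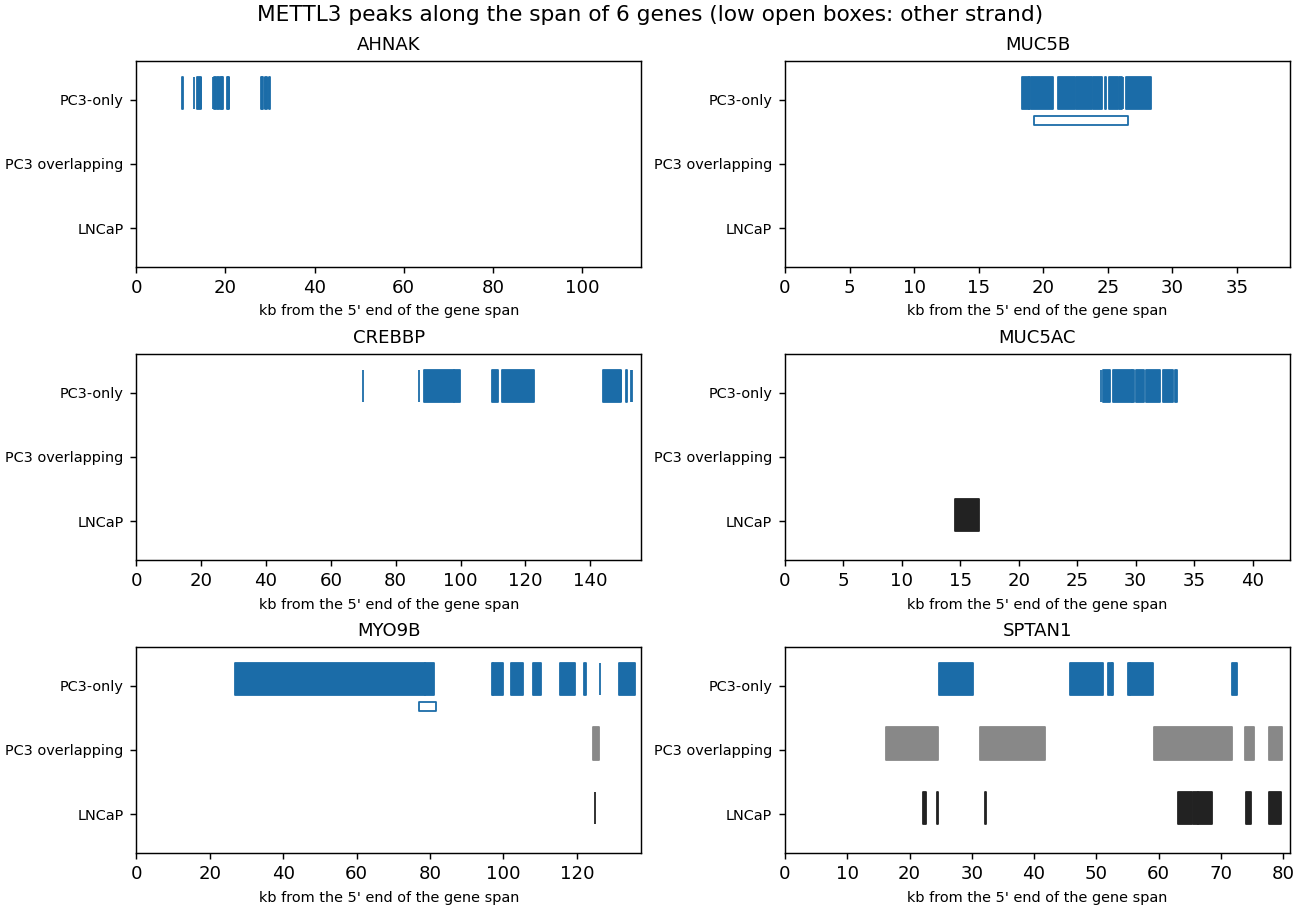
Boxes show PC3-only peaks, PC3 peaks overlapping LNCaP and LNCaP peaks along 6 genes, in kb from the 5′ end of the gene span in the direction of most PC3 peaks; low open boxes are peaks on the other strand. PC3-only peaks cluster near the start of AHNAK and in the middle of MUC5B, both without LNCaP peaks, and stand apart from the LNCaP peak on MUC5AC.

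CREBBP, EP300 and KAT6B, which encode histone acetyltransferases, held no LNCaP peak whole, while KAT6A, a relative of KAT6B, had 1 beside its 2 PC3-only peaks. CREBBP, a transcriptional coactivator and acetyltransferase, had 11 PC3-only peaks on chromosome 16 between 3727853 and 3810766, all on its minus strand. Each had a fold of at least 9.72, and the highest was 20.1 at 3758046 to 3767898. The smallest p was 1.61e-45, at 3731354 to 3736800. Its close relative EP300 had 3 peaks, 2 of them with folds of 9.95 and 7.61 and p-values of 6.04e-14 and 2.74e-13. The third, 51 bp at 41117623 to 41117673 on chromosome 22, had the second-largest fold of the list, 120.5, with a p of 5.65e-06 that ranked number 999 of 1033. The class of EP300 rests on the rule that a peak lies whole within the gene, since a LNCaP peak covers the minus-strand PC3 peak at 41169389 to 41183137, which runs over the end of the EP300 span on the opposite strand. KAT6B, an acetyltransferase of the MYST family, had 4 peaks, of which 75020745 to 75029917 on chromosome 10 had a fold of 9.68 and a p of 7.42e-64, number 5 by p, and 1 of 22096 bp lay on the opposite strand.

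The smallest p of the PC3 list, 7.79e-133, was that of a PC3-only peak on SPTBN1, which encodes a beta-spectrin of the membrane skeleton. The peak spanned 38657 bp (54621439 to 54660095 on chromosome 2) on the gene's strand, and its fold was 16.3. Of the other 5 peaks on SPTBN1, 4 lay on the same strand with folds from 4.61 to 11.9, and 1 of 375 bp lay on the opposite strand with a fold of 14.3. ACTN1 had a single peak over most of its length, 72312 bp, with a fold of 6.08 and a p of 4.96e-49, beside a 51 bp peak of fold 5.05. MYO10, a myosin of filopodia, had peaks with folds of 13.1 and 13.4, and MYO5A, which carries vesicles along actin, had 6 with folds from 4.81 to 8.54. No LNCaP peak lay on any of these 4 cytoskeletal genes.

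Other genes with 5 or more PC3-only peaks and no LNCaP peak were SIPA1L1, SIPA1L3, SULF2, ABI3BP and HNRNPUL1. SIPA1L1 had 9 (folds 4.62 to 8.26) and SIPA1L3 had 8 (folds 11.3 to 15.7), all on the plus strand of their genes and none in the first part of the gene span; both encode Rap GTPase-activating proteins. SULF2, a sulfatase that trims heparan sulfate outside the cell, had 7 peaks on its minus strand that together ran from 47658111 to 47785924 on chromosome 20 with folds of 4.40 to 6.67, and 1 on the other strand (5.69). The matrix protein ABI3BP had 5, with folds of 8.27 to 13.2 and a smallest p of 2.08e-55. HNRNPUL1, an RNA-binding protein, had 6 with folds held between 4.78 and 5.51. On OS9, which acts in the degradation of misfolded proteins of the endoplasmic reticulum, the strongest peak (26856 bp, fold 9.01, p = 4.87e-51 in the authors' list) lay on the strand opposite to the gene, while the peak on the gene's own strand had a fold of 2.74.

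On the 111 genes with a LNCaP peak elsewhere, both lines had listed peaks, and at least 1 PC3 peak met no LNCaP peak. An overlapping PC3 peak was present as well on 88 of them, and on 23 no PC3 peak shared a base with a LNCaP peak on its strand. These 23 include near misses of the rule. Their shortest distance from a PC3-only peak to a LNCaP peak ran from 49 bases (CLSTN1) to 383548 bases (ROBO1). PC3-only peaks outnumbered the LNCaP peaks on 31 of the 111 genes, equalled them on 20 and were fewer on 60. The overlapping PC3 peaks are left out of this count, so it does not compare all peaks of the 2 lines. The smallest LNCaP p was at or under 1.59e-05, the largest p in the PC3 list, on 41 of the 111 (36.9%), against 249 of all 1081 genes with a LNCaP peak (23.03%) and 389 of all 2616 LNCaP peaks (14.9%). The authors' 2 lists end at different p-values, 1.59e-05 in PC3 and 0.0178 in LNCaP. Their median p-values were 6.37e-09 and 0.00137, at median folds of 5.74 and 5.26. With depth and filters unknown, the larger p limit need not make the LNCaP list more sensitive. A PC3-only place is thus one not listed in LNCaP, which does not show that METTL3 is absent there. The LNCaP signal at such places is not in the lists.

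MYO9B, an unconventional myosin, led this class with 11 PC3-only peaks on chromosome 19 between 17102536 and 17211716, 1 of them on the opposite strand. Their folds ran from 7.37 to 31.0, the highest at 17172917 to 17175716, and the smallest p was 2.65e-36 at 17191112 to 17195331 (fold 20.0). The only LNCaP peak on the gene, 76 bp with a fold of 3.002 and a p of 0.0142, met the twelfth PC3 peak. The histone H3 lysine 4 methyltransferase gene KMT2D carried the largest and third-largest folds of the PC3 list, 139.4 and 120.2, on peaks of 126 and 51 bp at 49037562 to 49037687 and 49037862 to 49037912 on chromosome 12. Their p-values, 2.99e-06 and 5.77e-06, ranked number 957 and 1005. ZFHX3, a transcription factor, had 4 short peaks near its 3′ end with folds from 11.7 to 23.97, the nearest of them 91496 bases from a LNCaP peak of the gene.

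The strongest member of this class by p was on SIN3A, the scaffold of a histone deacetylase complex. Its peak at 75375733 to 75380664 on chromosome 15 had a fold of 12.4 and a p of 1.33e-53. The 1 LNCaP peak on SIN3A, 10866 bases from the nearer PC3 peak, had a fold of 12.3 and a p of 0.00213, so the folds were alike at 2 different places. MCM3AP, which acts in mRNA export, had 1 peak of fold 6.90 (p = 1.27e-36 in the authors' list). PRRC2C, an RNA-associated protein, had 3, with folds of 3.69 to 5.45 and a smallest p of 1.24e-29. SEPTIN9, a filament-forming GTPase, had 1 peak of fold 20.4 beside peaks of 3.76 and 3.63.

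SPTAN1, FLNA and PLEC carried PC3-only and overlapping peaks side by side. On ACTN4, another actin crosslinker, the 1 PC3-only peak lay 19087 bases from the 1 LNCaP peak, which 1 other PC3 peak overlapped. SPTAN1, the alpha-spectrin that pairs with SPTBN1, had 7 PC3-only peaks with folds from 6.70 to 15.5, 5 overlapping PC3 peaks and 8 LNCaP peaks, and 1 of the 7 stopped 99 bases from a LNCaP peak. FLNA, the actin crosslinker filamin A, had 8 PC3-only, 8 overlapping and 15 LNCaP peaks; the PC3-only ones had folds from 4.87 to 7.92 and lay within 2140 bases of a LNCaP peak. PLEC, the cytolinker plectin, had 6 PC3-only, 9 overlapping and 16 LNCaP peaks, the PC3-only ones within 831 bases of a LNCaP peak and with folds from 4.83 to 21.1. On these 3 genes the PC3-only peaks thus lay between and beside LNCaP peaks. TOP2A, the topoisomerase of dividing cells, had 6 PC3-only peaks (folds 3.64 to 6.05) further away. They lay in the first and middle parts of the gene, 2291 to 16867 bases from its 1 LNCaP peak. That LNCaP peak was met by 1 other PC3 peak. The nuclear pore genes POM121C and POM121 had 8 and 5, with folds from 8.42 to 18.0 and from 5.27 to 19.0. They are near-identical copies on chromosome 7, so their reads may not be separable.

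Along the gene span, divided into 3 equal parts and read 5′ to 3′ on the strand of the peak, 326 of the 556 assigned PC3-only peaks had their midpoint in the last part (58.6%, Wilson interval 54.5 to 62.7%), 150 (27.0%) in the middle part and 80 (14.4%) in the first. The overlapping PC3 peaks had 53.4% (48.7 to 58.0%) in the last part. Counted by peak, the PC3-only classes were furthest apart at the other end. The first part held 8.75% (5.90 to 12.8%) of peaks on genes with a LNCaP peak elsewhere. On genes without one it held 19.5% (15.3 to 24.4%), and 20 of these 57 peaks were those of AHNAK. The intervals count peaks of the same gene as independent, so they cannot decide whether the classes differ. Whether the gap in the first part remains without AHNAK or when counted by gene was not tested. On genes with a LNCaP peak elsewhere, 122 of the 263 PC3-only peaks (46.4%) lay 3′ of all LNCaP peaks of the gene on that strand, 64 (24.3%) lay 5′ of all, and 75 (28.5%) lay between them. LNCaP peaks themselves decide which PC3 peaks count as overlapping, so these shares are not independent of the rule.

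**Figure D5:**
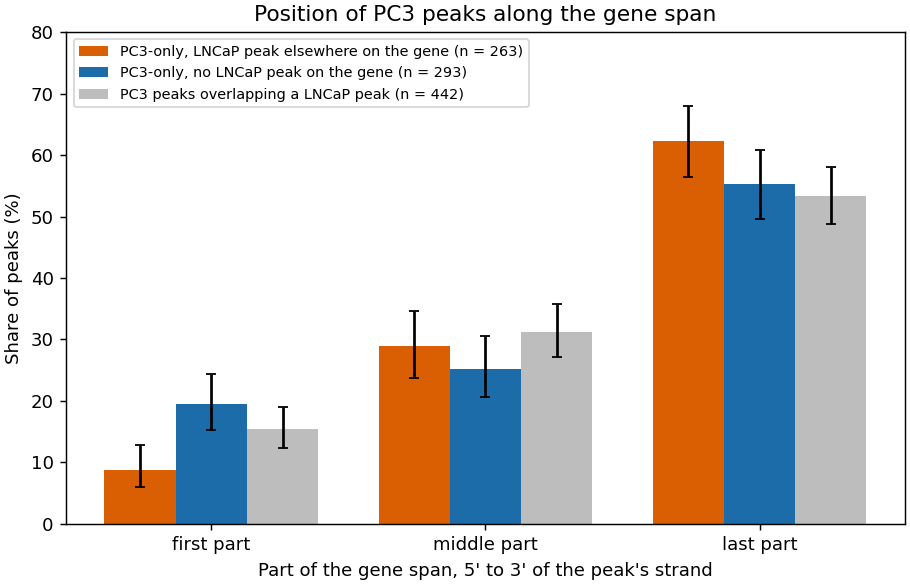
Bars give the share of PC3 peaks whose midpoint lay in each of 3 equal parts of the gene span, and error bars are 95% Wilson intervals (counting error only). The last part holds 62.4% and 55.3% of the 2 PC3-only classes and 53.4% of the overlapping peaks. In the first part the PC3-only classes stand at 8.75% and 19.5%, the latter including all PC3-only peaks of AHNAK. The intervals count peaks of the same gene as independent.

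Strand was examined because the library kit is stranded, per the labels. Where the promoter table gave the gene's strand, 419 PC3-only peaks lay on it and 14 on the opposite one (3.23%), and among the overlapping PC3 peaks 10 of 360 lay opposite (2.78%). Of the 14, 12 overlapped a PC3 peak on the other strand. LMLN shows the pattern in small: a plus-strand peak at 198038841 to 198039016 on chromosome 3 (fold 16.8) lay inside a minus-strand peak at 198038595 to 198039234 (fold 15.6), with the gene on the plus strand. At the EFTUD2 start printed above, a plus-strand peak at 44899316 to 44899491 (fold 4.83) lay inside the minus-strand one. Overlap with an opposite-strand PC3 peak was found in 52 PC3-only peaks in all (9.06%) and in 30 overlapping ones (6.54%). How strand was used in counting is not given in the sources used here, so the 2 strands may not be separable at these places.

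Grouped by function, 2 lists had the most member genes. Of 43 histone modifiers and chromatin remodelers, 18 carried a PC3-only peak (41.9%), 12 with a LNCaP peak elsewhere and 6 without, and their 54 peaks had a median fold of 9.70 against 5.87 over all PC3-only peaks. SETD1A, a histone H3 lysine 4 methyltransferase, had folds of 3.61 and 10.8. Of 35 actin, spectrin and myosin genes, 17 carried one (48.6%), 9 and 8 by class, with 78 peaks and a median fold of 6.48. LNCaP peaks lay on more genes of both lists, 27 of the 43 and 18 of the 35. In each list 6 further genes had only PC3 peaks that overlapped LNCaP peaks. Neither group is therefore particular to the PC3-only peaks. The PC3-only shares are to be read against 1.21% of all protein-coding genes, whether expressed or not. They are also to be read against the length of the genes, with list medians of 122509 and 123248 bp. Both lists were drawn up with earlier results of these peaks known, so their counts are no independent evidence.

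In the other lists fewer genes were members. Their shares too are to be read against 1.21% of all protein-coding genes and against gene length. The median gene span of these lists ran from 35635 bp (mucins) to 164541 bp (calcium channels), against 24170.5 bp over all protein-coding genes. Of 39 matrix and integrin genes 6 carried a PC3-only peak (15.4%), 4 of them without a LNCaP peak. Among these 4 were ITGA3, an integrin chain with 2 peaks (the more upstream with a fold of 3.97), the laminin chain LAMB3 (3.36) and the tenascin TNC (5.95), which was named after its value was seen. Microtubule and centrosome genes gave 5 of 30 (16.7%), among them the dynein heavy chain DYNC1H1 (folds 7.76 and 9.23) and the dynactin subunit DCTN1 (5.09). Of 39 genes of receptor tyrosine kinase, PI3K and mTOR signalling 2 were members (5.13%), both without a LNCaP peak. They were EPHA2, an ephrin receptor, with 3 peaks (3.89 to 4.92), and MTOR, the growth-regulating kinase, with 2 (6.43 and 10.4). Trafficking genes gave 3 of 36 (8.33%: MYOF, AP3D1 and DNM2), calcium channels 2 of 23 (8.70%: TRPM2 and ITPR3) and ubiquitin enzymes 2 of 37 (5.41%: HUWE1 and NEDD4L). RNA processing genes gave 2 of 36 (5.56%: SRRM1 and POLR2A) and repair and replication genes 2 of 32 (6.25%: TOP2A and MCM3). Mucins gave 3 of 15 (20.0%) and junction genes 1 of 33 (3.03%: PLEC). None of the 20 m6A writers, readers and erasers, METTL3 included, carried a PC3-only peak, and 3 of them had a peak in LNCaP. At 1.21% of all protein-coding genes, a count of 0 in 20 is near the background.

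Markers of cell identity gave little. None of 12 luminal and androgen-response genes, 12 mesenchymal and basal genes, 8 neuroendocrine genes and 6 leukocyte genes had a PC3-only peak. Against 1.21% of all protein-coding genes, no member in lists of this size is near the background. In LNCaP 4 of the luminal genes had a peak, and the leukocyte and neuroendocrine genes had none in either line. FN1 was the only mesenchymal marker with PC3 peaks, and all 4 of them overlapped LNCaP peaks. A missing peak says nothing about the level of a transcript, so these markers do not check the labels of the lines.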

How the data were processed

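METTL3 RIP-seq libraries of PC3 and LNCaP cells (8 samples, METTL3 IP and input, 2 replicates each) were summarised by the authors in 1 deposited peak list per line. Each peak has a linear fold, a p-value and an FDR, a score and a span, per the file headers. What the deposited fold divides by is not named. The submitters' processing notes name fastp, STAR 2.5.3a, bedtools, deepTools and the build hg38. The peak caller, the filters and the handling of replicates are not given in the sources used here. Coordinates are those of the lists, 1-based and on GRCh38.

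Overlaps, joined stretches and gene assignment were computed in Python 3.11.15 with pandas 2.3.3 and scipy 1.17.1, and checked on simulated intervals. Shared means at least 1 bp on the same strand. Genes are RefSeq protein-coding spans (GRCh38.p14) that alone hold a whole peak. Gene strand came from the promoter table, where listed. No test was run. Intervals are Wilson intervals for shares and order-statistic intervals for medians, at 95%, and cover counting error or the spread of peaks only. Genes were named by fixed rules: the 10 largest folds and 10 smallest p-values with an FDR of at most 0.05 in each class, the 5 genes with most peaks in each class, up to 4 genes of each of 13 lists with the smallest p, peaks at the edge of the rule, and markers. Other genes, such as those at gene starts, were chosen after their values were seen. The members and lists were chosen with earlier results of these data known. ORAI1 was not in the gene table.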

Additional observations from a re-analysis of the deposited data

How the results depend on the processing

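No paired analysis was possible because the lists hold no values per replicate, and no replicate could be left out. Of 28 alternative values, 18 stayed within 1.5 times a count or within the 95% interval of a share or median, and 10 moved. With the largest PC3 p applied to the LNCaP list, PC3-only peaks numbered 871 in place of 574 and genes without a LNCaP peak 254 in place of 130, as follows from fewer LNCaP peaks. A PC3 p of at most 1e-10 left 154 peaks, 60 of them on genes with a LNCaP peak elsewhere, and 45 genes without one. It moved the share in the last part to 63.7%, the median fold to 6.82 and the median span to 2682 bp. The median fold was 5.51 with 1 peak per gene and 5.45 without the 10 genes with most PC3-only peaks, which hold 103 of the 574. Demanding 50% overlap gave 810 PC3-only peaks, ignoring strand 569 and allowing 1000 bp between peaks 499. The alternatives on gene strand and on the 10 genes were chosen after seeing the data. For the shifts in share, fold and span the cause was not tested. Depth is unknown, so how far it limits either list cannot be said.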
